A study of Homo sapiens with 24 samples.

Results

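The genes described here are the zinc finger genes of human chromosome 19. They were taken as every protein-coding gene on chromosome 19 of GRCh38 whose symbol is ZNF followed by digits, matched to the 62703 Ensembl gene identifiers of the count files, and 241 genes met the rule. Of these, 83 lie on the short arm (19p) and 158 on the long arm (19q). They were measured by poly(A) RNA-seq in T/C-28a2, an immortalised human chondrocyte line, in 24 libraries that fall into 6 groups of 4. WT Ctr are unmodified cells in isotonic medium, and WT Sor are the same cells grown for 7 days with 100 mM sorbitol, which raises the osmolarity of the medium. WNK2 trans Ctr and WNK2 trans Sor are labelled as wild-type cells transfected with a plasmid for WNK2, a kinase of the osmotic stress response, 48 hours before the medium was changed to isotonic or sorbitol medium. WNK2- Ctr and WNK2- Sor are a line in which CRISPR/Cas9 removed exon 2 of WNK2, grown in the same media. All groups were kept in medium with 2% serum during the treatment. The WNK2- cells are a clonal line, so effects of the deletion and of the clone cannot be told apart, and the controls of the transfected cells were untransfected cells.

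Most ZNF genes of chromosome 19 encode KRAB zinc finger proteins, which bind DNA through arrays of C2H2 zinc fingers. Their KRAB domain recruits TRIM28 (KAP1), which in turn brings in the histone methyltransferase SETDB1 and other silencing factors, and the bound site is packed into chromatin marked by H3K9 trimethylation. The family grew by tandem duplication, so that its genes stand in clusters of close relatives, and many members bind and silence transposable elements.

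Total counts per library ran from 14153002 to 25664619. The WNK2 gene itself had 1217 to 2568 counts in the libraries labelled WT Ctr and 2237 to 3739 in those labelled WNK2 trans Sor. Under the other labels it was lower, with 266 to 314 in WT Sor, 163 to 290 in WNK2 trans Ctr, 440 to 501 in WNK2- Ctr, and between 322 and 503 in WNK2- Sor. The libraries labelled WNK2 trans Ctr therefore held fewer WNK2 counts than those labelled WT Ctr, against their label, and WT Ctr stood far above WT Sor. Every direction below is between libraries as labelled. The study reports no significant change of WNK2 RNA in wild-type cells, either with sorbitol or with WNK2 transfection. Its values for transfected and control cells in isotonic medium are nearly equal, and its WT Sor value lies far above that of WNK2- Sor. Here the mean normalised count of WNK2 was 2520 in WT Ctr and 251.9 in WNK2 trans Ctr. It was 302.5 in WT Sor and 359.5 in WNK2- Sor. The doubt therefore covers each comparison that uses the libraries labelled WT Ctr, WT Sor or WNK2 trans Ctr, and both interactions. Among the comparisons only sorbitol in WNK2- uses none of them. A count over the whole gene does not test the removal of an exon. Among the chondrocyte markers SOX9 was listed at 0 in all libraries, and COL9A1 and CNMD were near 0. As group means of normalised counts, COL2A1 ranged from 6.14 in WNK2- Ctr to 179 in WNK2 trans Ctr, ACAN from 10.7 to 156, COMP from 7.29 to 56.3, MATN3 from 20.3 to 85.9 and HAPLN1 from 253 to 2157. From WNK2 trans Ctr to WNK2 trans Sor the means of HAPLN1, at 852 and 2157, and of SOX5, at 14.2 and 31.2, were higher. Those of COL2A1, ACAN, COMP, MATN3 and COL11A2, the last at 103 and 51.9, were lower. SOX6 and COL11A1 had group means of at most 3.4 and 4.25. Of the fibroblast markers COL1A1 ranged from 17580 to 87750 and COL3A1 from 1065 in WNK2- Sor to 19300, while COL1A2 was at most 8.02. The immune markers PTPRC and CD3E were below 10 normalised counts in every group mean, and CD68 was listed at 0. The endothelial markers PECAM1 and CDH5 had group means of 191 to 968 and 21.1 to 922, with CDH5 lowest in WNK2 trans Ctr and highest in WNK2 trans Sor. The endothelial marker VWF had 8.28 to 34.1. Of the epithelial markers KRT18 had group means of 5061 to 7071, EPCAM 6.65 to 27.9 and CDH1 3.50 to 8.83. What part these markers have in the results below was not tested. The study describes the libraries of a group as biological replicates. Their spread was uneven between groups, while the joint fit used a shared estimate of spread for each gene. Between pairs of libraries the chi-square of the counts per degree of freedom was 2.30 to 5.12 in WT Sor and 19.5 to 63.9 in WT Ctr.

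When members less than 500 kb apart were joined, 229 of the 241 fell into 10 clusters of at least 5 genes, here numbered along each arm, and 12 stood outside them. On 19p these were P1 (chr19:2819874-2944971, 5 members), P2 (chr19:8509678-9793180, 13 members), P3 (chr19:11483427-12640098, 25 members) and P4 (chr19:19668796-24129961, 37 members, from ZNF101 to ZNF254). On 19q they were Q1 (chr19:34677639-34964049, 5 members), Q2 (chr19:36182060-37817300, 25 members), Q3 (chr19:43525497-44500524, 23 members, from ZNF575 to ZNF180), Q4 (chr19:51571298-53580269, 39 members), Q5 (chr19:55476332-56671783, 16 members) and Q6 (chr19:57191500-58481230, 41 members, from ZNF264 to ZNF446). ZNF114 (ENSG00000178150, chr19:48270102-48287608, plus strand) stood outside the clusters. P4 is the pericentromeric cluster and its genes had the lowest GC content, with a median of 37.6% of the bases of the longest transcript, while those of Q5 had the highest, with 58.7%.

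Of the 241 members, 193 had counts and 168 passed the filter on low counts and were tested. The other 48, or 19.9%, were listed at 0 in all 24 libraries, among them ZNF146, ZNF419, ZNF587 and ZNF8, with 14 in Q6 and 11 in P3. Over all 19856 protein-coding genes 15.8% were listed at 0, including the ribosomal protein gene RPS10 and the succinate dehydrogenase gene SDHA. Of the 48 members at 0, 39 share exon sequence with another annotated gene, against 93 of the 193 with counts. What the overlap had to do with the zeros was not tested, and nothing is said below of the expression of these 48.

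The level of the tested members, as normalised count per kilobase of exon averaged over the 24 libraries, had a median between 29.8 in Q3 and 115 in P2. ZNF317 in P2 was highest with 345, followed by ZNF865 with 316 and ZNF787 with 309, both in Q5. A normalised count is the read count scaled to a common library size. Of the tested members, 20 share more than 10% of their 50-base windows with transcripts of other zinc finger genes, so their counts are uncertain, among them ZNF724 (54.9%), ZNF284 (43.7%) and ZNF112 (11.5%). Over all members of a cluster the median shared percentage was highest in P3, at 6.9%, and P4, at 4.6%. In every other cluster it was at most 1.9%.

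The clusters differ in the DNA before their genes, and the sequences are shown so that the clusters described below can be compared. RefSeq (GRCh38.p14) gave a promoter for 210 of the 241 members, and the 250 bases before the gene start were searched on both strands. The word CCAATCAG, a form of the CCAAT box whose reverse complement is CTGATTGG, stood in 29 of 29 promoters of P4 and 21 of 24 of P3, against 3.98% of all 27305 promoters, and 14 of the 29 in P4 held at least 2 copies. It was in 4 of 5 promoters of P1, in 1 of 32 of Q4, in 1 of 10 outside the clusters, and in none of P2, Q1, Q2, Q3, Q5 and Q6. TTCCCAGAA, with reverse complement TTCTGGGAA, stood in 13 of 19 promoters of Q3 and in none of P3 and P4, against 0.96% of all promoters. It was also in 2 of 4 of Q1, 3 of 23 of Q2, 1 of 32 of Q4, 1 of 14 of Q5 and 1 of 10 outside the clusters. AACTACATT stood in 15 of 38 promoters of Q6 against 0.41% of all, and it was also in 3 of 19 of Q3, 1 of 4 of Q1, 2 of 23 of Q2 and 1 of 14 of Q5. The words were picked by reading the promoters of the clusters, do not overlap each other, and are a description of the letters. CpG dinucleotides were fewest in P4, with a median of 8 in 250 bases, against 16 over the members and 11 over all promoters.

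The promoters of 6 genes named below follow, 5′ to 3′ on the strand of the gene, with CCAATCAG and TTCCCAGAA in either orientation in capitals. ZNF675 (chr19:23687213-23687462, minus strand), ZNF681 (chr19:23758892-23759141, minus strand) and ZNF93 (chr19:19900696-19900945, plus strand) are from P4, ZNF441 (chr19:11766750-11766999, plus strand) is from P3, and ZNF230 (chr19:44002707-44002956, plus strand) and ZNF235 (chr19:44305026-44305275, minus strand) are from Q3.
ZNF675: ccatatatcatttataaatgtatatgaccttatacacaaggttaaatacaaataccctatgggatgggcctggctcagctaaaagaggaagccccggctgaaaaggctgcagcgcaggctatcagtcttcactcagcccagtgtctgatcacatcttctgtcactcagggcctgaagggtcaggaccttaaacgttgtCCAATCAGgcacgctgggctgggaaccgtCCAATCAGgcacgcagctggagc
ZNF681: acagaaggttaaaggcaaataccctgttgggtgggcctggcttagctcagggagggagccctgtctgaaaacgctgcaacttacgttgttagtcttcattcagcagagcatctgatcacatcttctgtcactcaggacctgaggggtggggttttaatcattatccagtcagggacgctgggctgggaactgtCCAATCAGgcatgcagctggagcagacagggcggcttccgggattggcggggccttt
ZNF93: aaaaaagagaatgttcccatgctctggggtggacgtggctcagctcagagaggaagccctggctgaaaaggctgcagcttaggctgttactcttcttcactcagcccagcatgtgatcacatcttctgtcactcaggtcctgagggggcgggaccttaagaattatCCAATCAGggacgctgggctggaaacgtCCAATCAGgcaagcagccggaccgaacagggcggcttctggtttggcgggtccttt
ZNF441: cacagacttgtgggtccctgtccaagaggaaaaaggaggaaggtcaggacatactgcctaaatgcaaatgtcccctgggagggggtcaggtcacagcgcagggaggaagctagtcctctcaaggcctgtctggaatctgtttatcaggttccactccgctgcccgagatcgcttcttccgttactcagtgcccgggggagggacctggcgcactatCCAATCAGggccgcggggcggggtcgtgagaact
ZNF230: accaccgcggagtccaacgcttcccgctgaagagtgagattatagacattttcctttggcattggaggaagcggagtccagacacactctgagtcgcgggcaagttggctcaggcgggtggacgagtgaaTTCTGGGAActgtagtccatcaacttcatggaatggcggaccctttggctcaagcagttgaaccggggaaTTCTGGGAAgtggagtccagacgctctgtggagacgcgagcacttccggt
ZNF235: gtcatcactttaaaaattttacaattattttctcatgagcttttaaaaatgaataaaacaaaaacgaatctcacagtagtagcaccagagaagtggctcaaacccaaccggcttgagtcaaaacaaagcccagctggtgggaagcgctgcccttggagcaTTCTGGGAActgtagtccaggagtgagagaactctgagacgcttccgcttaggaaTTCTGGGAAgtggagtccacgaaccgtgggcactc
The longest run of identical bases was 26 between ZNF675 and ZNF681, 24 between ZNF675 and ZNF93 and 23 between ZNF230 and ZNF235, against 13 between ZNF93 and ZNF441.

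ZNF114 had the largest change of the members in the WNK2- libraries. In normalised counts the 4 WNK2- Sor libraries held 705, 660, 533 and 657, while the 4 WNK2- Ctr libraries held 47.4, 50.2, 41.4 and 43.3. WT Ctr held 95.3, 85.3, 56.2 and 59.7, and WT Sor held 69.7, 62.1, 66.0 and 78.6. The libraries labelled WNK2 trans Ctr held 99.5, 100.0, 90.0 and 58.6, and those labelled WNK2 trans Sor held 116, 132, 178 and 140. All WNK2- Sor libraries stood above all other libraries, and all WNK2- Ctr libraries stood below all others. ZNF114 rose with sorbitol in WNK2- cells by a log2 fold change of 3.81 ± 0.18 (SE; edgeR quasi-likelihood test, Benjamini-Hochberg adjusted p = 1.2e-13). It did not pass the test with sorbitol in WT cells, where the log2 fold change was -0.10, and the interaction of genotype and medium was 3.91 ± 0.26 (adjusted p = 3.7e-10). Against WT it was lower in WNK2- cells in isotonic medium, at -0.70, and higher under sorbitol, at 3.21 ± 0.18 (adjusted p = 1.5e-13). Its exons overlap 1 gene on the opposite strand, and whether the counting used strand is not given in the sources used here.

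**Figure D1:**
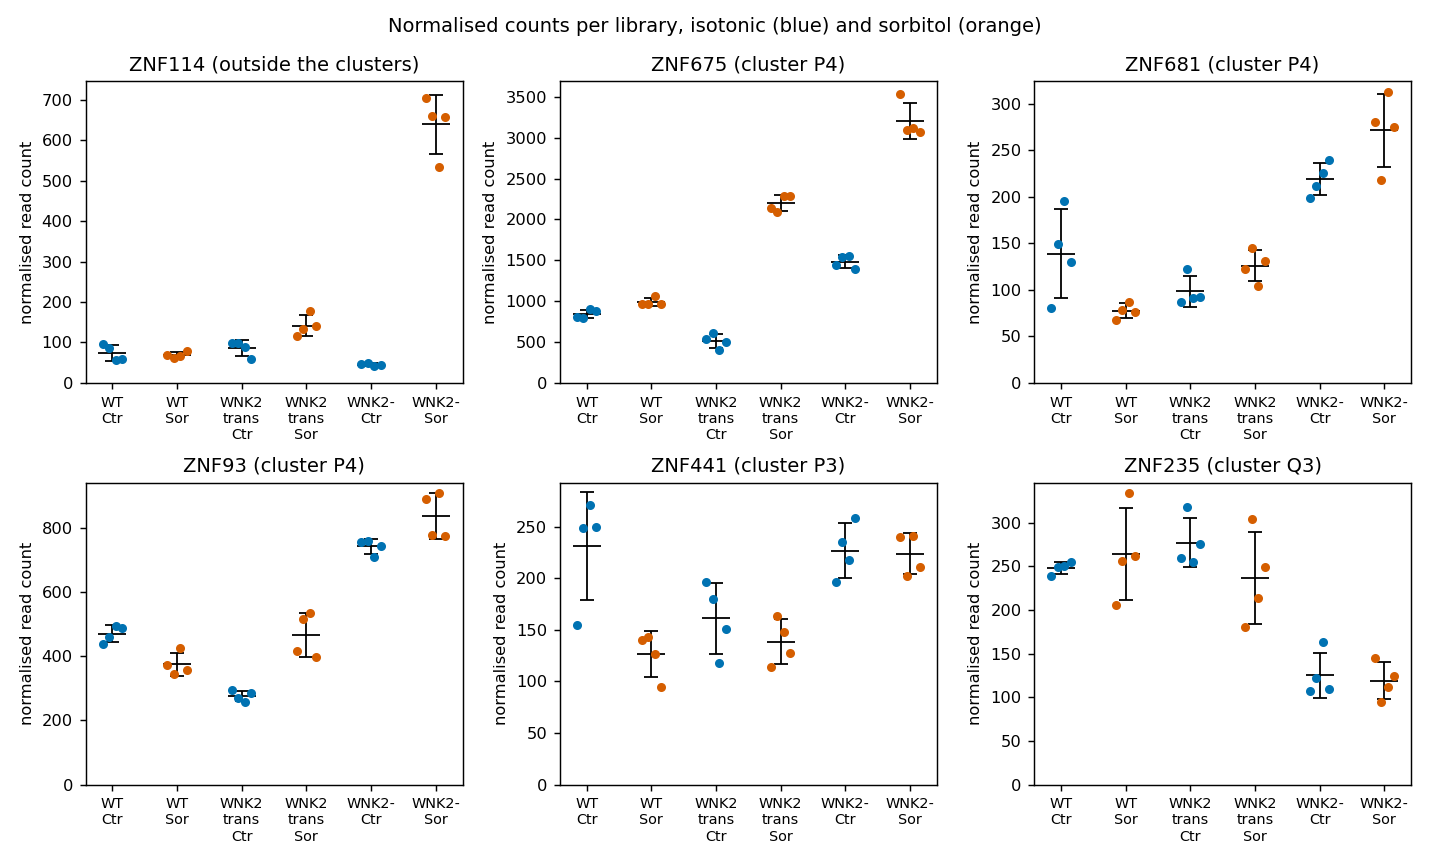
Normalised read counts of 6 members in the 24 libraries, 4 points a group, with isotonic libraries in blue and sorbitol libraries in orange; the bar is the mean and the whiskers 1 SD. ZNF114 reached 533 to 705 in WNK2- Sor against 41.4 to 178 elsewhere, the P4 genes ZNF675, ZNF681 and ZNF93 were higher in WNK2- than in WT, and the Q3 gene ZNF235 was lower in WNK2-.

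The comparison of WNK2- with WT asks how the members differ when exon 2 of WNK2 is missing. In isotonic medium 15 of the 168 tested members were higher and 70 lower in WNK2- at an adjusted p under 0.05, with a median log2 fold change of -0.29. Over all 16600 tested genes 42.1% were called, 20.7% higher and 21.5% lower, and the median was 0.00. Under sorbitol 39 members were higher and 46 lower, with a median of -0.06, against 46.3% of all genes called, 23.7% higher and 22.7% lower. The 2 comparisons share no library. Of the 85 members called in each, 53 were called in both, which is 62.4% of each list. These were 37 lower in both media, 13 higher in both and 3 in opposite directions. All genes gave 69.4% of the isotonic list and 63.1% of the sorbitol list.

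The direction of the calls varied by cluster. In P4, 10 of 23 tested members were higher and 1 lower in WNK2- in isotonic medium, with a median of 0.28. Under sorbitol 18 were higher and 0 lower, with a median of 0.62, and 10 members were higher in both media. Outside P4, 5 of 145 members were higher and 69 lower in isotonic medium, and 21 were higher and 46 lower under sorbitol. The 15 other tested protein-coding genes inside P4 or within 500 kb of it (its neighbours) had medians of 0.10 and -0.16, with 4 higher and 1 lower in isotonic medium and 2 higher and 3 lower under sorbitol. When any 1 of the 24 libraries was left out, 8 to 11 P4 members were higher in isotonic medium and 16 to 18 under sorbitol. Trends of GC content and length were also taken out of each library. All members together then gave 21 higher and 80 lower in isotonic medium, and 40 higher and 57 lower under sorbitol.

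**Figure D2:**
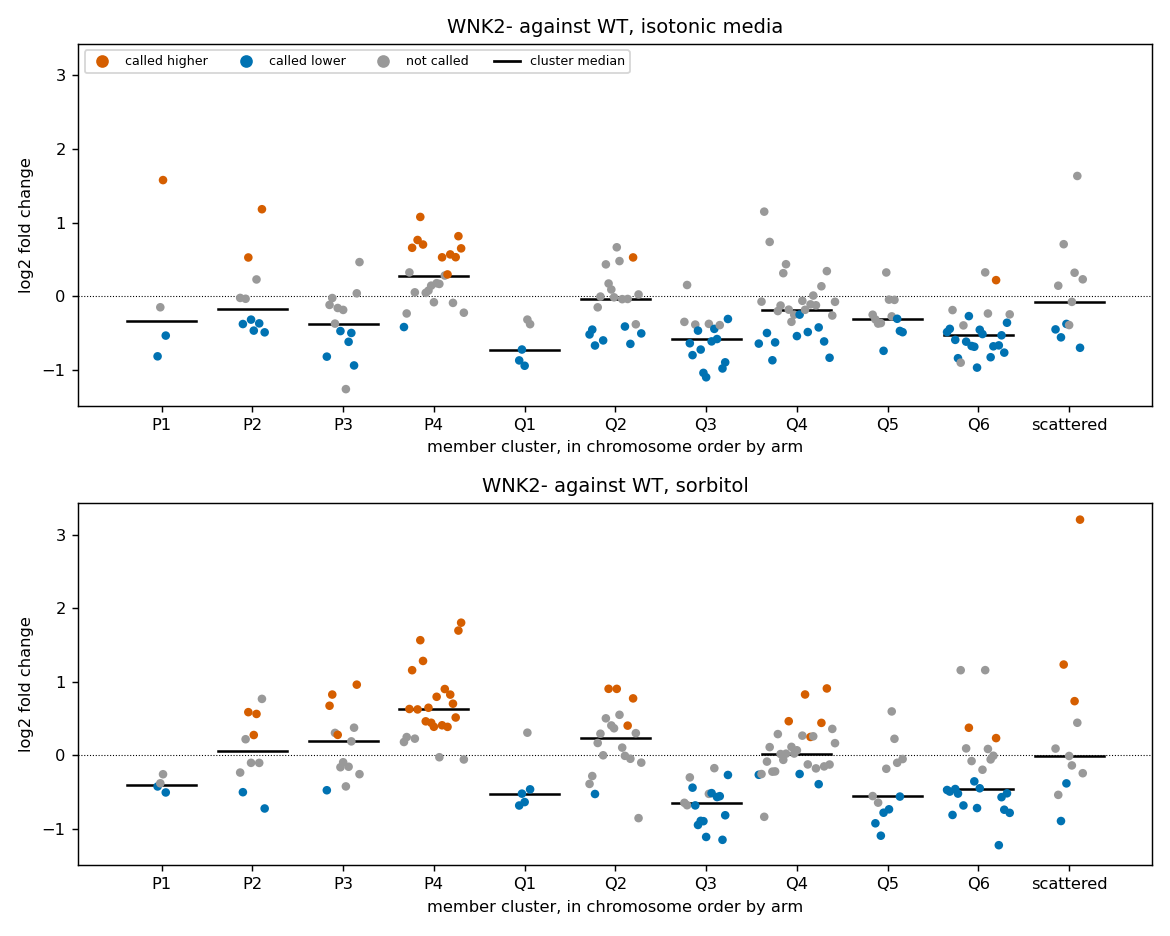
Log2 fold change of WNK2- against WT for each tested member, by cluster, in isotonic medium (top) and under sorbitol (bottom); orange and blue points passed the test, grey points did not, and black lines are cluster medians. P4 lies above 0 in both panels, with medians of 0.28 and 0.62, and Q3 and Q6 lie below 0.

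Within P4, ZNF675 encodes a protein known to bind TRAF6 and to dampen its signalling. Its normalised counts were 800.7, 800.5, 899 and 875 in WT Ctr and 1446, 1540, 1559 and 1396 in WNK2- Ctr. Under sorbitol they were 966, 965, 1060 and 964 in WT and 3537, 3094, 3119 and 3076 in WNK2-. No WNK2- library overlapped a WT library in either medium. The log2 fold change was 0.82 ± 0.09 in isotonic medium (adjusted p = 1.2e-07) and 1.70 ± 0.09 under sorbitol (adjusted p = 1.3e-13).

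ZNF681 was the P4 member with the largest increase in WNK2- over WT when both were under sorbitol. WT Sor held 67.5, 78.8, 87.3 and 76.6 and WNK2- Sor held 280, 218, 312 and 275, without overlap, and the log2 fold change was 1.80 ± 0.19 (adjusted p = 1.9e-08). In isotonic medium ZNF66 rose most, from 66.3, 115, 116 and 101 in WT Ctr to 172, 236, 214 and 218 in WNK2- Ctr, by 1.08 ± 0.21 (adjusted p = 0.00017). ZNF90 went from 56.7, 97.1, 114 and 63.7 to 130, 130, 164 and 141, by 0.76 ± 0.20 (adjusted p = 0.0028), and its exons overlap 1 gene on the same strand and 2 on the other. In each case the lowest WNK2- library stood above the highest WT library.

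ZNF93 and ZNF91 in P4 have well-known targets, and ZNF91 was picked for that after their values were seen. ZNF93, which silences LINE elements, had 438, 461, 493 and 487 normalised counts in WT Ctr and 755, 759, 709 and 741 in WNK2- Ctr, and 372, 344, 425 and 355 in WT Sor against 888, 777, 906 and 772 in WNK2- Sor. It was higher in WNK2- by 0.66 in isotonic medium and by 1.16 under sorbitol, and no WNK2- library overlapped WT. ZNF91, which silences SVA elements, was higher by 0.53 and 0.52. The 5 P4 members that did not pass the test under sorbitol were ZNF101, ZNF14, ZNF682, ZNF493 and ZNF254, with log2 fold changes between -0.06 and 0.25.

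**Figure D3:**
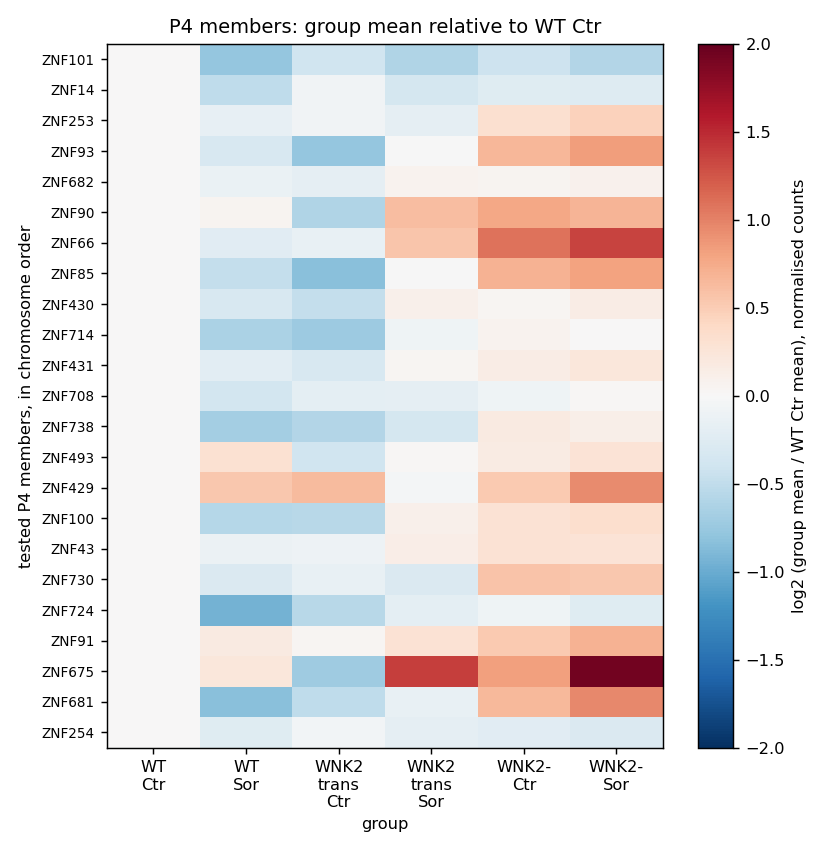
Group mean of the normalised counts of the 23 tested P4 members relative to the WT Ctr mean, on the log2 scale, in chromosome order; red is higher and blue lower than WT Ctr. The WNK2- columns are mostly red, WT Sor and WNK2 trans Ctr are mostly blue, and ZNF675 is strongest in WNK2- Sor.

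Summed over its 37 genes, P4 made up 391 to 543 CPM (reads scaled to a fixed library total) in WT Ctr and 405 to 447 in WT Sor. The libraries labelled WNK2 trans Ctr held 308 to 402 and those labelled WNK2 trans Sor 504 to 646. WNK2- Ctr held 530 to 630 and WNK2- Sor 674 to 825. The range of WT Ctr overlaps that of WNK2- Ctr, and also those of WT Sor and of both WNK2 trans groups, those of WNK2 trans Sor and WNK2- Ctr overlap, and WNK2- Sor stood above all others. The members outside P4 summed to 2676 to 3012 CPM in WT Ctr and 2766 to 2857 in WT Sor. They summed to 2243 to 2382 CPM in WNK2- Ctr, and WNK2- Sor held 2470 to 2642, so that here every WNK2- library was below every WT library. The libraries labelled WNK2 trans Ctr held 2761 to 2980 and those labelled WNK2 trans Sor 2505 to 2820. The ranges of WNK2 trans Sor and WNK2- Sor overlap. Fewer cells that express a gene and less RNA per cell cannot be told apart in these bulk libraries.

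**Figure D4:**
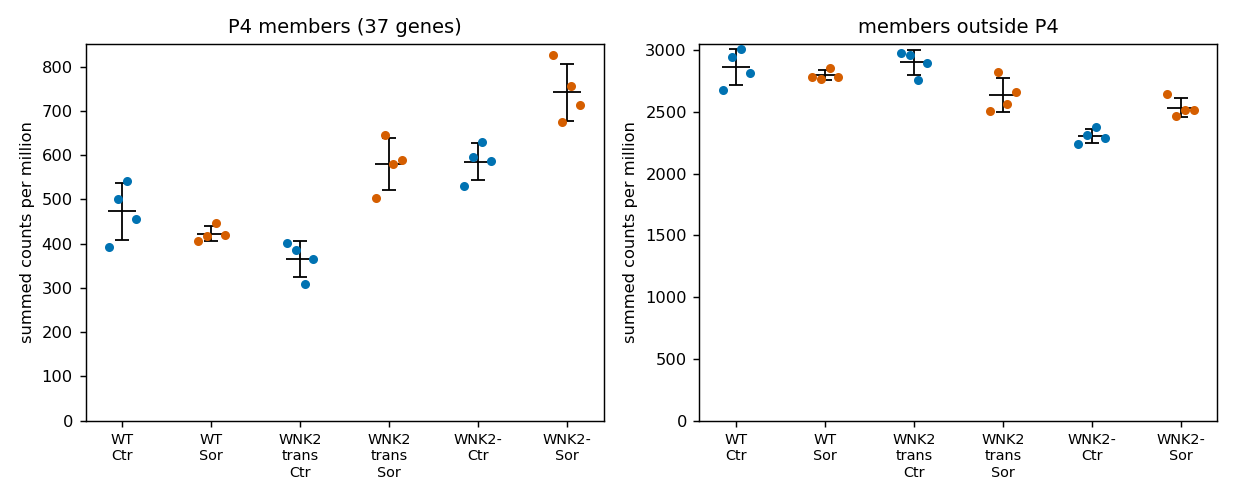
CPM summed over the 37 P4 members (left) and over the members outside P4 (right) in each library, with group means and SD. P4 was highest in WNK2- Sor, at 674 to 825, and the other members were lowest in WNK2- Ctr, at 2243 to 2382.

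In Q3 no member was higher in WNK2- and 12 of 17 were lower in each medium, 10 of them in both, with medians of -0.58 and -0.65. ZNF235 had 239, 249, 250 and 255 normalised counts in WT Ctr and 107, 122, 163 and 109 in WNK2- Ctr, and fell by 0.98 ± 0.17 on the log2 scale (adjusted p = 5e-05). Under sorbitol it had 206, 256, 334 and 262 in WT and 145, 95.0, 112 and 124 in WNK2-, and fell by 1.15 ± 0.17 (adjusted p = 4.4e-06). ZNF230 had 215, 244, 302 and 243 in WT Ctr against 136, 120, 120 and 111 in WNK2- Ctr, and fell by 1.04 ± 0.12 (adjusted p = 1.2e-07). The groups did not overlap in any of these. ZNF284 fell by 1.10 and 1.11 in the 2 media, from 60.6 to 141 normalised counts in WT Ctr to between 37.9 and 54.0 in WNK2- Ctr, and from 66.9 to 131 in WT Sor to between 34.8 and 47.1 in WNK2- Sor. The 25 tested neighbours of Q3 had medians of -0.25 and -0.48, with 12 lower and 6 higher in each medium, and left-out libraries gave 10 to 13 lower Q3 members in isotonic medium and 9 to 13 under sorbitol.

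In Q6, 1 of 24 members was higher and 17 lower in WNK2- in isotonic medium, and 2 were higher and 14 lower under sorbitol, with medians of -0.52 and -0.45. Its 14 tested neighbours had medians of -0.34 and -0.27. ZNF274, which guides SETDB1 to the zinc finger gene clusters themselves and was picked for that after its values were seen, was higher in both media, by 0.22 and 0.23. Among Q6 genes picked after their values were seen, ZNF776, ZNF304 and ZNF606 were lower by 0.97, 0.84 and 0.83 in isotonic medium, and ZNF606 did not pass the test under sorbitol, where its value was -0.06. In Q1, 3 of 5 members were lower in isotonic medium and 4 of 5 under sorbitol, with none higher. In Q2, 1 of 20 members was higher and 7 lower in isotonic medium, and 4 were higher and 1 lower under sorbitol. In Q4, 0 of 29 were higher and 10 lower in isotonic medium, and 5 were higher and 3 lower under sorbitol. In P3, whose promoters share CCAATCAG with those of P4, 0 of 13 were higher and 5 lower in isotonic medium, and 4 were higher and 1 lower under sorbitol. CCAATCAG also stood in 4 of 5 promoters of P1. There ZNF554 and ZNF77 were lower in WNK2- in both media, and ZNF57 was higher in isotonic medium only.

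The other 782 tested protein-coding genes of chromosome 19 had 115 higher and 212 lower in WNK2- in isotonic medium, with a median of -0.11, and 87 higher and 301 lower under sorbitol, with a median of -0.31. The 180 tested ZNF genes of other chromosomes had 35 higher and 44 lower in isotonic medium and 30 higher and 48 lower under sorbitol, with medians of -0.07 and -0.02.

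**Figure D5:**
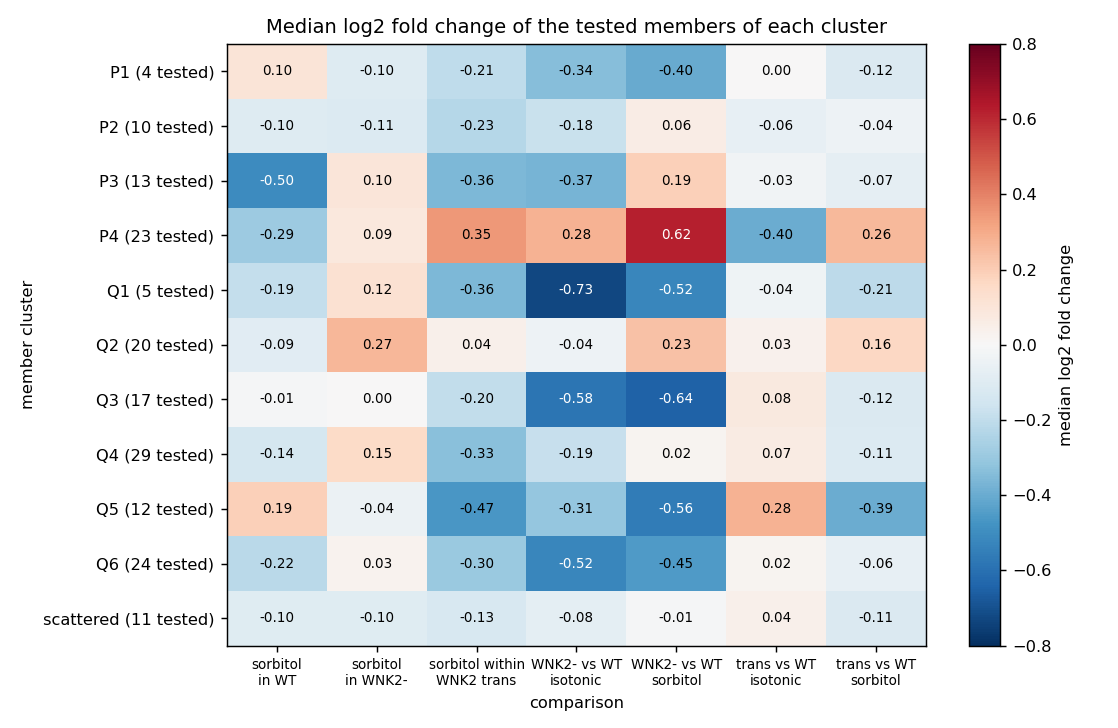
Median log2 fold change of the tested members of each cluster (rows, with the number tested) in the 7 pairwise comparisons (columns); red is higher and blue lower in the group named first or with sorbitol. P4 is the only row with positive medians in both WNK2- columns, and P3 has the lowest median for sorbitol in WT, -0.50. Columns that use the same control libraries are not independent.

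The comparison of WT Sor with WT Ctr asks what a week of sorbitol did to the members in unmodified cells. Here 2 of 168 members were higher and 41 lower, with a median of -0.14, against 24.1% of all genes called, 11.4% higher and 12.7% lower, and a median of 0.03. The lower members were 23 of 53 tested on 19p and 18 of 115 on 19q. In P3, 8 of 13 were lower, with a median of -0.50, and in P4, 10 of 23 were lower and ZNF429 was higher. The 43 neighbours of P3 had 4 higher and 5 lower, and none of the 15 neighbours of P4 passed the test. Without WT Ctr replicate 2 the count of members called went from 43 to 27.

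ZNF441 in P3 had 154.3, 248.7, 271.5 and 249.6 normalised counts in WT Ctr and 140.5, 143.4, 126.8 and 95.0 in WT Sor. The groups did not overlap, though WT Ctr replicate 1 lay close to the sorbitol libraries, and the log2 fold change was -0.87 ± 0.18 (adjusted p = 0.00091). ZNF724 in P4 fell from 96.5, 124.3, 139.5 and 107.5 to 56.6, 63.3, 50.7 and 71.5, by 0.95 ± 0.15 on the log2 scale (adjusted p = 6.6e-05). ZNF101, the first gene of P4, fell by 0.77 ± 0.16 (adjusted p = 0.0013), from 569, 906, 450 and 441 to 374, 337, 343 and 338, and without WT Ctr replicate 2, which held 906, the value was -0.48. ZNF837 in Q6 was higher by 0.64 ± 0.21 (adjusted p = 0.024), with values set out below among the GC-rich members.

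Sorbitol in WNK2- cells changed few members. Of 168, 8 were higher and 2 lower, and the median of the members was 0.07. Over all genes 14.9% were called, 8.25% higher and 6.64% lower. Besides ZNF114, the largest rise was in ZNF675, by 1.11 ± 0.09 (adjusted p = 3.4e-09), from the WNK2- Ctr to the WNK2- Sor values given above, which do not overlap. ZNF563 in P3 went from 56.85, 48.3, 41.4 and 44.15 to 71.7, 66.7, 83.1 and 77.6, a rise of 0.65 ± 0.19 (adjusted p = 0.022). ZNF333, outside the clusters, fell by 0.78 ± 0.13 (adjusted p = 0.00017), from 258, 215, 190 and 228 to 120, 153, 143 and 102. ZNF112 in Q3 fell by 0.48 ± 0.15 (adjusted p = 0.026), from 122, 125, 145 and 137 to 117, 91.7, 84.0 and 86.0. ZNF563 and ZNF112 lost their calls when certain single libraries were left out. With the 2 WNK2- groups fitted alone 26 members were called.

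The interaction of genotype and medium tests whether the response to sorbitol differed between WNK2- and WT. Of 168 members 23 had a higher response in WNK2- and 0 a lower one, and the median of the members was 0.26. Over all genes 8.65% were called, 3.99% higher and 4.66% lower. The 23 members comprised 6 in P4, 5 in P3, 4 in Q4, 3 in Q6, 2 in Q2, 1 each in P2 and Q1, and ZNF114. Apart from ZNF114 the smallest p belonged to ZNF675, at 0.88 ± 0.13 (adjusted p = 7.9e-05), and to ZNF426 in P2, at 0.75 ± 0.14 (adjusted p = 0.0012). ZNF426 had 976, 900, 1010 and 806 normalised counts in WT Ctr and 635, 613, 601 and 627 in WT Sor, and 684, 613, 716 and 656 in WNK2- Ctr against 806, 697, 791 and 704 in WNK2- Sor, so that it fell in WT without overlap while the WNK2- groups overlapped. The count depended on single libraries, and was 12 without WNK2- Ctr replicate 2 or WNK2- Sor replicate 3, and 14 without WT Ctr replicate 2 or 3, WT Sor replicate 3 or 4, WNK2- Ctr replicate 1 or 3 or WNK2- Sor replicate 1.

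The libraries labelled WNK2 trans were compared with the WT libraries in the same medium, to ask what the transfected plasmid did. In isotonic medium 3 of 168 members were higher and 12 lower in the libraries labelled WNK2 trans Ctr, against 12.5% of all genes called, 5.57% higher and 6.98% lower. The 15 calls became 5 with the 2 groups fitted alone, and 25, 8 higher and 17 lower, with trends of GC content and length taken out of each library. Of the 12 lower members 8 were in P4, whose median was -0.40, and outside P4 2 of 145 were higher and 4 lower. Under sorbitol 16 were higher and 23 lower in the libraries labelled WNK2 trans Sor, against 31.7% of all genes called, 16.1% higher and 15.5% lower. Of the 16 higher members 10 were in P4, with a median of 0.26, and 1 P4 member was lower. The 15 neighbours of P4 had none called in isotonic medium and 5 lower under sorbitol.

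ZNF85 in P4 had 241, 368, 336 and 317 normalised counts in WT Ctr and 194, 185, 148 and 177 in the libraries labelled WNK2 trans Ctr. It was lower by 0.84 ± 0.13 on the log2 scale (adjusted p = 4.5e-05), without overlap. Likewise ZNF93, at 295, 269, 256 and 284 in WNK2 trans Ctr, was lower than in WT Ctr by 0.77 ± 0.10 (adjusted p = 9.2e-06), and ZNF714 was lower by 0.73 ± 0.16 (adjusted p = 0.0025). The P4 gene ZNF429 was higher, by 0.63 ± 0.17 (adjusted p = 0.016), with 132, 106, 125 and 115 against 88.0, 54.5, 82.2 and 83.6. ZNF160 in Q4 was higher by 0.32 ± 0.08 (adjusted p = 0.0099), and ZNF429 and ZNF160 both lost the call when only the 2 groups were fitted.

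Under sorbitol ZNF675 had 2138, 2094, 2292 and 2286 in the libraries labelled WNK2 trans Sor, above all WT Sor libraries, a difference of 1.16 ± 0.09 (adjusted p = 8e-10). ZNF114 was higher by 1.03 ± 0.18 (adjusted p = 9.1e-05) and ZNF66 by 0.77 ± 0.21 (adjusted p = 0.0068), with 129, 162, 179 and 115 against 76.2, 90.8, 83.2 and 90.9. ZNF221 in Q3 was lower by 0.84 ± 0.18 (adjusted p = 0.00089), with 49.3, 61.2, 64.5 and 45.0 against 110, 87.2, 106 and 88.8.

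Within the libraries labelled WNK2 trans, sorbitol was set against isotonic medium. Here 21 of 168 members were higher and 53 lower with sorbitol, with a median of -0.22, against 48% of all genes called, 24.3% higher and 23.7% lower. In P4 10 were higher and 1 lower, with a median of 0.35, and outside it 11 were higher and 52 lower. ZNF675 went from 534, 608, 408 and 507 to the 4 WNK2 trans Sor values above, a rise of 2.10 ± 0.10 (adjusted p = 5.9e-15). ZNF90 rose by 1.24 ± 0.20 (adjusted p = 2.3e-05), from 72.1, 51.6, 42.7 and 50.6 to 119, 167, 126 and 98.2, and ZNF85 by 0.84 ± 0.13 (adjusted p = 7.2e-06), to 295, 320, 358 and 289. ZNF284 fell by 1.05 ± 0.27 (adjusted p = 0.0028) and ZNF221 by 0.99 ± 0.18 (adjusted p = 6.5e-05). With the GC and length trends removed, P4 had 8 higher and 5 lower members and a median of 0.05 in this comparison.

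The interaction of the transfection label and medium was called for 26 members with a higher and 21 with a lower response under the WNK2 trans label, against 35.5% of all genes called, 18.1% higher and 17.4% lower. P4 held 13 of the 26 and 1 of the 21. The smallest p values were those of ZNF675, at 1.87 ± 0.13 (adjusted p = 6.3e-11), ZNF93, at 1.08 ± 0.15 (adjusted p = 2.2e-06), and ZNF85, at 1.31 ± 0.18 (adjusted p = 2.9e-06). P4 had 12 higher and 1 lower with the GC and length trends removed. In Q5 6 of 12 members had a lower response and none a higher one, but with the trends removed its members ZNF865, at 0.39 (adjusted p = 0.0059), and ZNF787, at 0.62 (adjusted p = 2.1e-05), were called with a higher response. ZNF865 was at -1.27 before, and called, and ZNF787 at -0.87, not called.

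GC-rich members varied between libraries of the same group. ZNF865, with 71.1% GC in its longest transcript, had 1805, 766, 1003 and 1597 normalised counts in WT Ctr and 1594, 600, 799 and 946 in the libraries labelled WNK2 trans Sor, while WT Sor held 1680 to 1801. ZNF579 (65.8% GC) had 1179, 349, 599 and 885 in WT Ctr and 794, 189, 362.5 and 400.3 in WNK2 trans Sor, and ZNF787 (70.3% GC) had 1505, 462, 708.5 and 1233 and 1497, 512, 747 and 970.5. In all 3 genes replicate 2 was the lowest and replicate 1 the highest of both groups. ZNF579 was called lower in WNK2 trans Sor than in WT Sor, by 1.14 ± 0.30 on the log2 scale (adjusted p = 0.0057), and lower than in WNK2 trans Ctr by 1.23 ± 0.31 (adjusted p = 0.0018). With the GC and length trends removed these values were -0.53 and -0.59, both still called. ZNF837 (70.1% GC) had 117, 74.6, 90.9 and 126 in WT Ctr, 174, 160, 140 and 163 in WT Sor, 131, 60.2, 84.5 and 68.9 in WNK2 trans Sor and 71.7, 86.7, 46.4 and 67.3 in WNK2- Sor. Its call in WT was lost with the trends removed, at 0.06, and that in WNK2 trans Sor against WT Sor, -0.90 ± 0.21 (adjusted p = 0.0018), became 0.06, also without a call. Its difference of -1.22 ± 0.21 between WNK2- Sor and WT Sor (adjusted p = 2.9e-05) became -0.66 and stayed called. ZNF865 was called lower in WNK2 trans Sor than in WT Sor, at -0.82, and called higher, at 0.24, with the trends removed. The interaction of ZNF837 with the transfection label, -1.23, became 0.29 without a call (adjusted p = 0.34).

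KRAB proteins act through shared cofactors, and 27 of 28 listed genes for TRIM28, SETDB1, the HP1 proteins and other parts of this machinery were tested. With sorbitol in WT 0 were higher and 7 lower, or 25.9% called against 24.1% of all genes. In WNK2- against WT 6 were higher and 5 lower in each medium, or 40.7% called against 42.1% and 46.3% of all genes, so these shares were near the background. With sorbitol within the WNK2 trans labels 2 were higher and 9 lower, or 40.7% against 48% of all genes. The transfection label gave 0 higher and 2 lower in isotonic medium, 7.41% against 12.5%, and 1 higher and 4 lower under sorbitol, 18.5% against 31.7%. With sorbitol in WNK2- 0 were higher and 6 lower, 22.2% against 14.9%. TRIM28, the corepressor itself, was lower with sorbitol in WT by 0.42 ± 0.12 on the log2 scale (adjusted p = 0.012), in WNK2- by 0.38 ± 0.12 (adjusted p = 0.033) and within the WNK2 trans labels by 0.46 ± 0.12 (adjusted p = 0.0028). SETDB1, the H3K9 methyltransferase, was lower in WNK2- than in WT by 0.30 ± 0.10 in isotonic medium (adjusted p = 0.015) and by 0.52 ± 0.10 under sorbitol (adjusted p = 8.2e-05). ATF7IP2, a relative of the SETDB1 partner ATF7IP, was higher in WNK2- Sor than in WT Sor by 1.31 ± 0.15 (adjusted p = 9.1e-08).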

How the data were processed

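Poly(A) RNA of the 24 libraries was sequenced from NEBNext Ultra libraries. The deposited files hold raw read counts per Ensembl gene, made by the authors. The submitters' processing notes name FastQC 0.11.9, HISAT2 2.2.1, HTSeq 2.0.2, DESeq2 1.38.3 and GRCh38; the annotation release and the strand setting of the counting are not given in the sources used here.

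Samples were grouped by their labels. The 24 libraries were fitted jointly with edgeR 4.0.16 (limma 3.58.1, R 4.3.3), with TMM factors, filterByExpr (minimum count 10, minimum total 15) and the quasi-likelihood test. This left 16600 genes, and Benjamini-Hochberg adjustment ran over all of them, with a threshold of 0.05. The SE is the log2 fold change divided by the square root of F. To obtain normalised counts, each count was scaled from the effective size of its library to the mean effective size, 18363858. Totals between 14153002 and 25664619 limit precision mostly for members with few counts.

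Gene positions came from GENCODE 29. Clusters joined members less than 500 kb apart, and held at least 5; the arms were split at 26 Mb. Neighbours are other tested protein-coding genes inside a cluster or within 500 kb of it. Sharing was the percentage of 50-base windows of a gene's longest transcript found in transcripts of other zinc finger genes. The GC and length correction took spline trends (5 degrees of freedom) out of each library.

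Named were ZNF114; in each pairwise comparison the 3 members with the largest rise and the 3 with the largest fall among those called whose groups did not overlap and whose log2 CPM averaged 0 or more; the 3 smallest p of each interaction; the 3 highest levels per exon length; members called in the same direction in both media for both WNK2- and the transfection label, of which there were none; and TRIM28, SETDB1 and called cofactors beyond a log2 fold change of 1. Genes outside this rule are said to be picked, or stand as counts or exceptions. The members, the lists and the promoter words were chosen with earlier results of these data known. Alternatives were DESeq2 1.42.0, other factors and filters, a minimum change, each comparison's groups alone, a replicate block, thinned libraries, the GC and length correction, members with a trailing letter, and leaving out each library. The replicate numbers were checked for pairing between the groups of each pairwise comparison. Correlations of the deviations of libraries with the same number ran from -0.273 to 0.223. They were not above 0.1 in every pair, so the numbers were not taken to pair the samples. WT Ctr was not checked against WNK2 trans Sor, and both groups enter the interaction of label and medium with the same sign. In both, replicate 2 had the lowest share of counts from mitochondrial genes, 2.208% and 2.258%. Whether these libraries share a batch was not tested.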

Additional observations from a re-analysis of the deposited data

Results flagged for a closer look

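In 156 groups of 4 libraries of named members, 7 held a library that stood apart from the other 3 relative to the range of the group, where chance gives about 1 in 20. For ZNF724 these were WNK2 trans Ctr replicate 3, with 76.5 normalised counts, and WNK2 trans Sor replicate 2, with 115. For ZNF101 it was WT Sor replicate 1, with 374, and for ZNF66 WNK2 trans Ctr replicate 1, with 146, where the other 3 libraries held 64.1 to 75.4. ZNF675 stood apart in WT Sor replicate 3, with 1060, and in WNK2- Sor replicate 1, with 3537, and ZNF681 in WNK2 trans Ctr replicate 2, with 123.

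The response to sorbitol differed between WNK2- and WT, by the interaction term of the edgeR fit (log2 scale, adjusted over all genes), for ZNF114 (3.91), ZNF563 (1.32), ZNF681 (1.15), ZNF675 (0.88), ZNF441 (0.85), ZNF724 (0.79), ZNF426 (0.75), ZNF85 (0.58) and ZNF93 (0.50). It was higher in WNK2- for each of these 9 genes.

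The response to sorbitol also differed between the transfection labels. It was higher under the WNK2 trans label for ZNF675 (1.87), ZNF85 (1.31), ZNF724 (1.31), ZNF714 (1.29), ZNF681 (1.19), ZNF90 (1.19), ZNF93 (1.08), ZNF66 (0.94), ZNF114 (0.80), ZNF441 (0.65) and ZNF317 (0.38). It was lower for ZNF579 (-1.58), ZNF221 (-1.32), ZNF865 (-1.27), ZNF837 (-1.23), ZNF429 (-1.19), ZNF333 (-0.50) and ZNF160 (-0.32). With the GC and length correction ZNF865 became 0.39, called higher (adjusted p = 0.0059), and ZNF837 became 0.29, not called (adjusted p = 0.34).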

How the results depend on the processing

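Under the alternatives run, members kept their direction in the comparisons they were named for, except ZNF837 in WNK2 trans Sor against WT Sor. It went from -0.90 to 0.057 with the GC and length correction. Outside those pairs this correction changed other signs. ZNF865, named for its level, went from -0.82 to 0.24 in WNK2 trans Sor against WT Sor. Within the transfection labels it went from -0.84 to 0.30. In the interaction of the label and medium ZNF865, ZNF787 and ZNF837 changed sign. With a minimum log2 change of 0.3 the members called fell from 43 to 12 for sorbitol in WT, from 85 to 47 and 48 for WNK2- in isotonic and sorbitol medium, from 10 to 3 for sorbitol in WNK2-, from 15 to 4 and from 39 to 14 for the transfection label in isotonic and sorbitol medium, from 74 to 42 for sorbitol within the transfection labels and from 23 to 6 for the interaction of genotype and medium. Without a filter on low counts, sorbitol in WNK2- gave 6 and the interaction of genotype and medium 10, more genes being tested. With the compared groups fitted alone, sorbitol in WT gave 27, sorbitol in WNK2- 26 and the transfection label in isotonic medium 5. The GC and length correction gave 18 for sorbitol in WNK2- (10 higher, 8 lower) and 25 for the transfection label in isotonic medium (8 higher, 17 lower). It also turned the split to 17 higher and 38 lower for the transfection label under sorbitol and to 28 higher and 39 lower for its interaction with medium, and it moved the median of the members by -0.143 and -0.21 there and by -0.221 within the transfection labels. Upper-quartile factors gave 19 higher and 17 lower for the transfection label under sorbitol. The cause of these differences was not tested.

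Leaving out 1 library gave 27 to 55 members for sorbitol in WT, 71 to 87 and 73 to 93 for WNK2- in isotonic and sorbitol medium, 6 to 13 for sorbitol in WNK2-, 12 to 22 and 30 to 48 for the transfection label in isotonic and sorbitol medium, 68 to 83 within the labels, 12 to 30 for the interaction of genotype and medium and 41 to 55 for that of the label and medium. The lowest value for sorbitol in WNK2-, 6, was without WNK2- Sor replicate 3. The replicate block gave 43, 84, 84, 10, 15, 39 and 74 members for the 7 pairwise comparisons in the order above and 21 and 47 for the interactions; pairing by number was checked only between the groups of each pairwise comparison. Joining members up to 1000 kb apart gave 9 clusters. Depth limits the 25 members with counts that were not tested, whose totals over all libraries were at most 131.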
